A study of Mus musculus with 7 samples.

Results

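Kinesins are motor proteins that use ATP to act on microtubules. Some assemble and work the mitotic spindle of dividing cells, where they slide microtubules apart, shorten them at their ends, move chromosomes and build the midzone at which the cell divides. Others carry vesicles, mitochondria, endosomes and RNA along the microtubules of axons, dendrites and cilia, the best known being the heavy chains of conventional kinesin (Kif5a, Kif5b and Kif5c), which bind cargo together with light chains (Klc). In the embryonic cortex, where radial glia and intermediate progenitors divide near the ventricle while new neurons grow axons, both kinds are expressed side by side. The genes described here are the 43 of 19938 genes on the array whose symbol begins with Kif or Klc followed by a digit, or with Kifc. They were divided by textbook role into 12 mitotic kinesins, 20 transport kinesins with their light chains, and 11 other kinesins. The symbols came from 49 probe sets that name only 1 gene, and 6 of the 43 genes had 2 of them, of which the one with the higher mean was used. A probe set that names Kifc1 together with Kifc5b was left out, and Klc2 was not analysed here.

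The values come from 7 Affymetrix arrays of total RNA from the cerebral cortex of C57BL/6 mouse embryos, 4 control and 3 Trnp1 knockdown. Cortices were electroporated at embryonic day 13, and cells carrying GFP were collected by flow cytometry 24 h later, so that both groups had been electroporated with GFP and were sampled at day 14. The labels give the genotype as WT for the controls and as Trnp1 knockdown for the others, and leave the sex undetermined. Trnp1 encodes a nuclear protein made in cortical progenitors. The comparison asks which transcripts differ when its level is lowered. The sequence and promoter of the knockdown construct, and what the control construct held, are not given in the sources used here. The sorted cells are whatever took up and expressed GFP, a mixture whose composition was not measured here. Markers of cortical cells and of cells from outside the cortical lineage are given below. The labels call the samples biological replicates without saying how many animals each holds, so the spread between samples may be partly technical and p-values measure only that spread. Every level and difference below is on the log2 scale of the deposited RMA values, differences are knockdown minus control, and standard errors (SE), 95% intervals and p-values are from limma, adjusted over all 19938 genes by the Benjamini-Hochberg method.

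Over all 35556 probe sets the array medians lay between 4.40 and 4.61. Controls had Trnp1 at 5.13 ± 0.117 (SD, n = 4), knockdown arrays at 4.73 ± 0.159 (SD, n = 3), and the groups did not overlap, but the difference of -0.40 (SE 0.12) did not pass (limma, adjusted p = 0.825). Defining genes of the embryonic cortex were present in all 7 arrays, with Neurod6 between 10.4 and 11.3, Tbr1 between 9.57 and 10.5, Eomes between 9.86 and 10.7 and Pax6 between 7.27 and 8.55. Markers of cells from outside the cortical lineage differed among arrays. The mean level of 7 GABA neuron markers was 4.14 to 4.47 in controls and 4.89, 6.71 and 4.59 in knockdown 1, 2 and 3, with all 7 markers higher in knockdown, 3 of them at an unadjusted p under 0.05, which 2.2% of all genes reached in that direction. The mean of 8 endothelial markers was 4.46, 4.63, 4.19 and 6.73 in controls 1 to 4 and 7.30, 6.07 and 5.001 in the knockdown arrays, and the mean of 8 microglia markers was 7.19, 5.95, 6.12 and 8.71 against 6.94, 7.99 and 6.75. Those of 4 erythroid markers were 7.31, 7.39, 7.19 and 8.53 against 7.76, 8.91 and 8.61. All 8 endothelial, all 8 microglia and all 4 erythroid markers had the higher mean in knockdown. The part of these cells in the results below was not tested.

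At an adjusted p under 0.05, limma called 0 of the 19938 genes, which is 0%, and therefore 0 of the 43 kinesins, among which no adjusted p was below 0.825. Before adjustment, a p under 0.05 was reached by 719 genes that were lower and 439 that were higher, which is 3.61% and 2.2% of all genes, and among the kinesins Kif21b and no other was lower and Kif26a and no other was higher. Knockdown arrays lay wholly below the controls for 3.07% of all genes and wholly above them for 2.59%. Of the 43 kinesins, Kif21b alone lay wholly below and none lay wholly above. The difference was below 0 for 50.2% of all genes and for 28 of the 43 kinesins (65.1%). These 28 were unevenly divided: 12 of the 12 mitotic, 9 of the 20 transport and 7 of the 11 other kinesins.

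**Figure D1:**
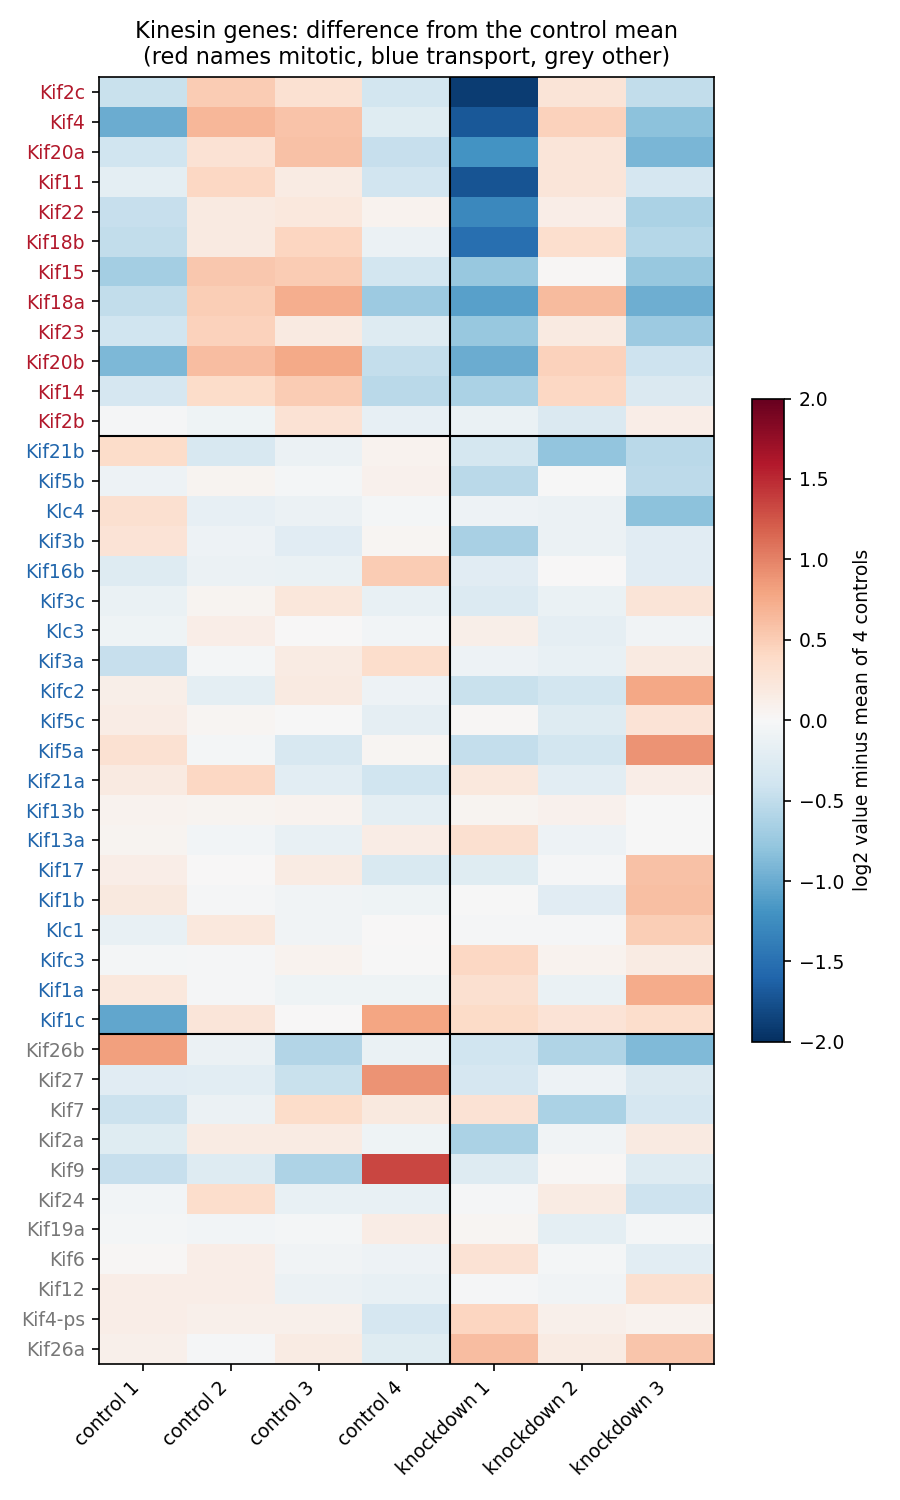
Level of each of the 43 kinesin genes in each of the 7 arrays (columns, controls then knockdown), shown as the log2 difference from the gene's control mean and ordered by class. The mitotic kinesins share a pattern over the arrays, with knockdown 1 lowest for 11 of 12, while the transport kinesins do not follow it.

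The mitotic kinesins had lower mean levels in knockdown for all 12 genes measured, with differences from -0.71 to -0.09 and a median of -0.54, beside a median of -0.001 over all genes. No gene of the class passed the test, at either the adjusted or the unadjusted threshold, and for all 12 the groups overlapped. Of the 4605 genes whose mean level lay within the range of the 11 brighter mitotic kinesins (6.44 to 8.59), 65.5% were lower in knockdown and their median was -0.12, so part of the direction was shared by genes of that brightness. In a bulk sample, fewer dividing cells and less RNA per dividing cell cannot be told apart. The knockdown arrays did not agree among themselves: averaged over the 12 genes, the difference from the control mean was -1.14 in knockdown 1, 0.26 in knockdown 2 and -0.57 in knockdown 3. The controls were spread as well, at -0.48, 0.38, 0.44 and -0.34 for replicates 1 to 4. Controls 2 and 3 were thus high, controls 1 and 4 low, and knockdown 2 lay among the high controls while knockdown 1 lay below every control.

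Kif11 (Entrez 16551), the bipolar motor that slides spindle microtubules apart and keeps the spindle poles separate, was at 8.65, 9.27, 9.01 and 8.47 in controls 1 to 4 and at 7.12, 9.10 and 8.52 in knockdown 1 to 3. Knockdown 1 was far below the controls, knockdown 3 lay inside their range, and knockdown 2 exceeded all but the highest control. The difference was -0.61 (SE 0.45, 95% interval -1.66 to 0.45; limma adjusted p = 0.833). Kif15, which can act beside Kif11 in keeping the spindle bipolar, was at 7.57, 8.78, 8.76 and 7.87 in controls and 7.49, 8.27 and 7.49 in knockdown, where replicates 1 and 3 lay just below the lowest control. It differed by -0.49 (SE 0.36; limma adjusted p = 0.830).

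Kif22 and Kif4 are chromokinesins, motors that sit on chromosome arms. Kif22 (Entrez 110033), which pushes the arms toward the spindle equator, had the smallest p of the mitotic kinesins. It was at 6.88, 7.51, 7.55 and 7.42 in controls and 6.05, 7.47 and 6.71 in knockdown, with replicates 1 and 3 below all controls and replicate 2 within them, a difference of -0.59 (SE 0.33, 95% interval -1.38 to 0.19; limma adjusted p = 0.825). Kif4, which also acts with Prc1 at the midzone, was at 6.57, 8.22, 8.13 and 7.30 in controls and 5.86, 8.02 and 6.74 in knockdown. Its difference of -0.68 had the largest standard error of the class (0.58), and control 1 was lower than knockdown 3.

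Kif2c (Entrez 73804), which removes tubulin from microtubule ends at the centromere and corrects faulty attachments, had the largest difference of the class. It was at 7.56, 8.50, 8.30 and 7.62 in controls and 6.10, 8.25 and 7.51 in knockdown, a difference of -0.71 (SE 0.50, 95% interval -1.88 to 0.47; limma adjusted p = 0.830), which put the knockdown mean at 61.3% of the control level on the linear scale. Kif18b, which works with Kif2c on the astral microtubules, was at 7.63, 8.30, 8.54 and 7.99 in controls and 6.61, 8.45 and 7.54 in knockdown and differed by -0.58 (SE 0.42). Kif18a, which dampens chromosome movement at the plus ends of kinetochore microtubules, differed by -0.47 (SE 0.53). For all these genes knockdown 1 was the lowest array and knockdown 2 stood among the controls.

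The kinesins of the midzone and of cytokinesis differed by -0.62 to -0.17. Kif20a (Entrez 19348), which brings the chromosomal passenger complex to the midzone, was at 6.997, 7.68, 7.98 and 6.93 in controls and 6.20, 7.63 and 6.48 in knockdown, a difference of -0.62 (SE 0.40; limma adjusted p = 0.825), with replicates 1 and 3 below all controls. Kif23 (Entrez 71819), the motor of centralspindlin, was at 7.78, 8.65, 8.37 and 7.93 in controls and 7.43, 8.36 and 7.46 in knockdown, a difference of -0.43 (SE 0.30; limma adjusted p = 0.83), again with replicates 1 and 3 lowest. Kif20b, needed for the last cut between daughter cells of cortical progenitors, differed by -0.31 (SE 0.50), and Kif14, which binds citron kinase at the midbody, by -0.17 (SE 0.34). For both, control 1 or 4 was about as low as knockdown 1, at 5.93 (control 1) against 5.84 for Kif20b and at 5.96 (control 4) against 5.88 for Kif14. A second probe set of Kif14, dim at a mean of 2.80, gave 0.11 (SE 0.12), so the probe sets disagreed in sign. Kif2b was dim in every array (2.87 to 3.43) and differed by -0.09 (SE 0.15).

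**Figure D2:**
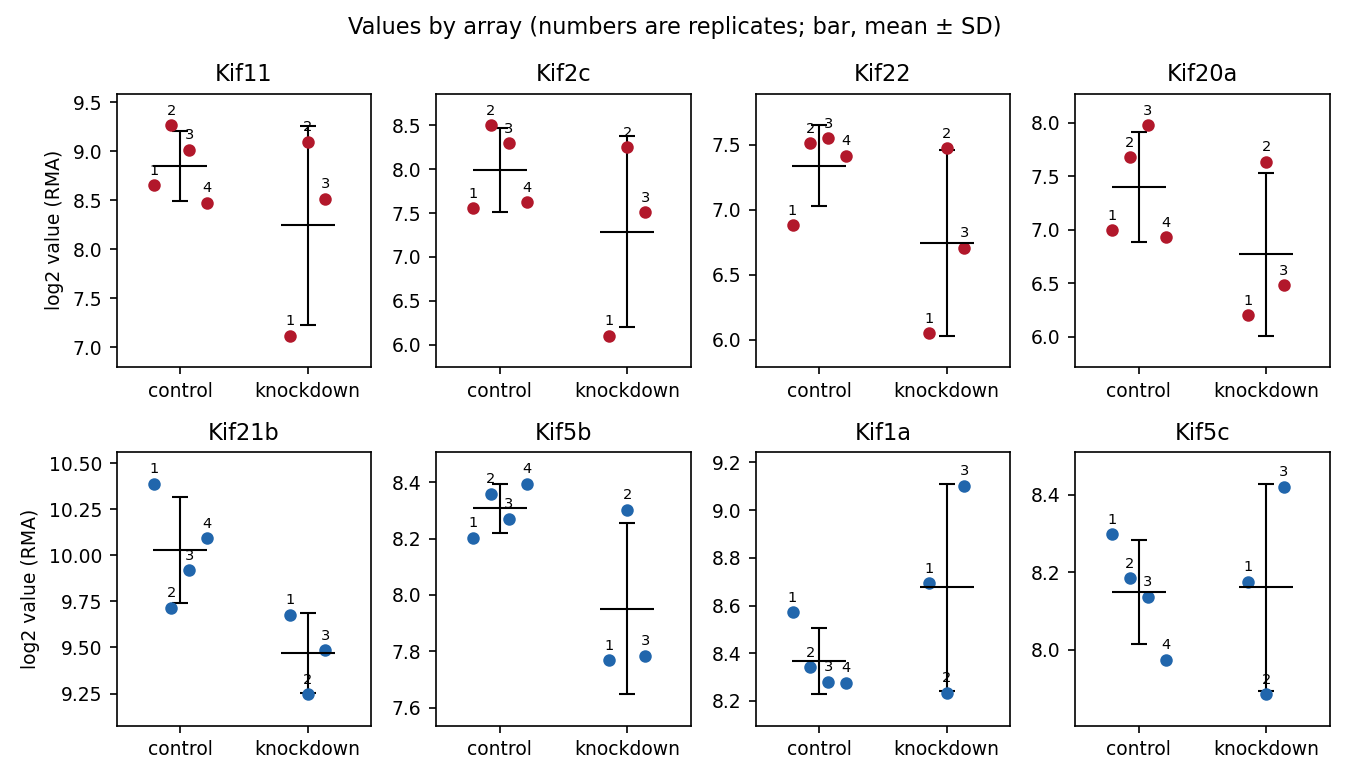
Log2 level of selected kinesin genes in each control (4) and knockdown (3) array, with group means as bars. For Kif11, Kif2c and Kif22 knockdown 2 lies within the controls, and for Kif21b all 3 knockdown arrays lie below the 4 controls.

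The class therefore varied along 1 pattern of arrays. Knockdown 1 was the lowest of the 7 arrays for 11 of the 12 genes, the exception being the dim Kif2b, and lay below all controls for the same 11. Knockdown 3 lay below all controls for 7. Knockdown 2 was the highest of the knockdown arrays, above the control mean and within the control range for 11. Controls 2 and 3 both exceeded controls 1 and 4 for 11 genes. The median within-group standard deviation was 0.642 for the mitotic kinesins, 0.271 for the transport kinesins and 0.2335 for all genes. The class median depended on single arrays in the same way: it was -0.14 without knockdown 1 and -0.99 without knockdown 2, and between -0.70 and -0.39 when any other array was left out. Without knockdown 1, Kif11 differed by -0.04 and Kif2c by -0.11, and without knockdown 2 by -1.03 and -1.19. Knockdown 2 was also the array with the highest GABA neuron markers, for example Dlx2 at 8.48 against 4.87 to 5.61 in the other 6 arrays, and knockdown 1 the one with the highest endothelial markers. Markers of the progenitors themselves did not follow the order of the mitotic kinesins, except in the controls of 1 list. The mean of 10 radial glia markers was 8.51, 8.71, 8.45 and 8.0037 in controls and 8.48, 8.43 and 8.10 in knockdown. Here control 1 exceeded control 3 and knockdown 1 exceeded knockdown 2. That of 8 intermediate progenitor markers was 8.24, 8.65, 8.61 and 8.27 against 8.73, 8.11 and 8.36. In this list controls 2 and 3 were above controls 1 and 4, as for the mitotic kinesins. Knockdown 1, however, was its highest array and knockdown 2 its lowest. The part of these cell types in the result was not tested.

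**Figure D3:**
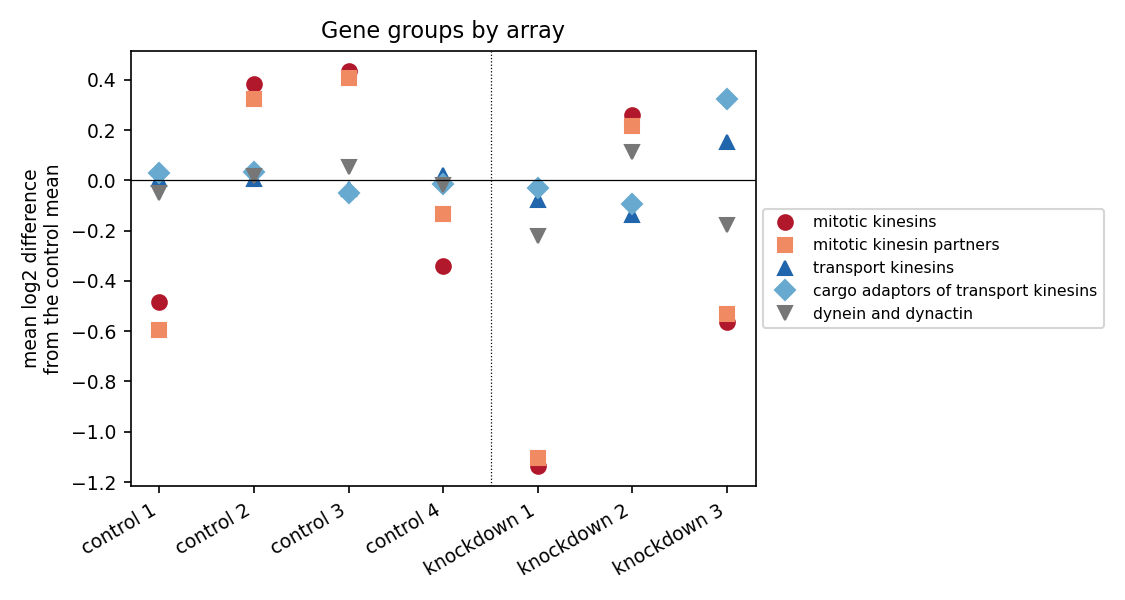
Mean log2 difference from the control mean in each of the 7 arrays, with 1 point per array and gene group. The groups are the mitotic kinesins and their partners, the transport kinesins and their cargo adaptors, and dynein and dynactin. The mitotic kinesins spread from -1.14 (knockdown 1) to 0.44 (control 3), the transport kinesins from -0.14 (knockdown 2) to 0.15 (knockdown 3).

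The genes with which mitotic kinesins work mostly followed the same arrays, with knockdown 1 lowest for 13 of 19. Of 20 listed partners 19 were measured, 18 of them lower in knockdown and 1 higher, with a median difference of -0.51 and 1 gene lower at an unadjusted p under 0.05, where 3.61% of all genes were. That gene was Cdk1, the kinase that drives entry into mitosis, at -0.95 (SE 0.33, unadjusted p = 0.022). Prc1, which bundles midzone microtubules and recruits Kif4, differed by -0.81 (SE 0.38). Racgap1, the centralspindlin partner of Kif23, was at 8.71, 9.01, 9.28 and 8.70 in controls and 6.74, 9.08 and 8.43 in knockdown, and Cenpe, the kinetochore kinesin whose symbol does not begin with Kif, was at 6.94, 7.54, 8.23 and 7.30 against 6.22, 7.93 and 7.27. Averaged over the 19 partners, the arrays stood at -0.60, 0.32, 0.41 and -0.14 in controls and -1.11, 0.22 and -0.53 in knockdown. This is the order of the mitotic kinesins, except that control 1 stood below knockdown 3. For Numa1, which anchors microtubules at the poles, the groups did not overlap, as for 3.07% of all genes in that direction, with a difference of -0.23.

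Many genes of the late cell cycle carry a short element near their start, the cell cycle genes homology region (CHR), often with CCAAT boxes at a small distance upstream. Because the mitotic kinesins varied together over the arrays, their promoter windows were searched for TTTGAA, the CHR core, and for CCAAT, each on both strands and at any position of the 300 bases from 250 before the RefSeq start to 50 after it, on assembly GRCm38.p6. Windows were found for 34 of the 43 kinesins, and those not matched were Kif13b, Kif19a, Kif20a, Kif21b, Kif4-ps, Kif5a, Kif5b, Kifc2 and Kifc3. The windows of Kif11 (chr19:37376132-37376431, plus strand), Kif22 (chr7:127042371-127042670, minus strand) and Kif18b (chr11:102925075-102925374, minus strand) are shown because they hold both elements near the start, and that of the transport kinesin Kif5c (chr2:49619036-49619335, plus strand) because it holds neither. Each runs 5′ to 3′ along the gene, and capitals mark TTTGAA or CCAAT, or their reverse complements TTCAAA and ATTGG.
Kif11: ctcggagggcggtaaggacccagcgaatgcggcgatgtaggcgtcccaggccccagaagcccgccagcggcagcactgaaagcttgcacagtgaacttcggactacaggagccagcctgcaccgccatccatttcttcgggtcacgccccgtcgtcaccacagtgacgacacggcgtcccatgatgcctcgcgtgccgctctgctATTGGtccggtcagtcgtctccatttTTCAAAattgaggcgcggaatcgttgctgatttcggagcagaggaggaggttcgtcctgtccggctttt
Kif22: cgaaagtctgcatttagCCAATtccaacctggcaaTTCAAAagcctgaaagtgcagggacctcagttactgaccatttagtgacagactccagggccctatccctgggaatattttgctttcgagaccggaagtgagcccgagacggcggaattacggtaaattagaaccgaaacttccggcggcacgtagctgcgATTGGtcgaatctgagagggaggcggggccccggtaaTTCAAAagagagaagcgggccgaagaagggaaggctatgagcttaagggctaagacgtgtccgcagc
Kif18b: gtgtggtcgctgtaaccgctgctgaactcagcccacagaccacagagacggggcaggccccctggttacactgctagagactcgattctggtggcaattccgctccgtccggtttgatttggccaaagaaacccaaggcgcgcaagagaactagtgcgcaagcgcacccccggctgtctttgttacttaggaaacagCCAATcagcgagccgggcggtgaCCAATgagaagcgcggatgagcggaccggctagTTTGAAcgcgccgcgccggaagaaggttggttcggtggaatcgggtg
Kif5c: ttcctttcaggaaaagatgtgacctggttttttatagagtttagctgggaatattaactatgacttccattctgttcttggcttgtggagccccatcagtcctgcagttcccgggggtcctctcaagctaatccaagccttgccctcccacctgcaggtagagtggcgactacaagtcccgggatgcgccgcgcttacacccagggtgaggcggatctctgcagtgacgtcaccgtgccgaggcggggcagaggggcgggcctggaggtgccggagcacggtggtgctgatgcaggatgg
Counted with the start as 1 and the base before it as -1, the CHR core began at -19 in Kif11, at -17 and -215 in Kif22 and at 4 in Kif18b. The CCAAT boxes began at -45 in Kif11, at -54 and -233 in Kif22 and at -30 and -53 in Kif18b.

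Of the 11 mitotic kinesins with a window, 9 (81.8%) held the CHR core, compared with 1 of 14 transport kinesins (7.14%), 2 of 9 other kinesins (22.2%) and 20.2% of the 27025 genes with a window. The core began within 50 bases of the start in 7 of the 11 mitotic kinesins (63.6%) and in 5.72% of all genes. It did so in 1 of the 14 transport kinesins (7.14%) and 1 of the 9 other kinesins (11.1%). In Kif15 it began at -19 and -234, in Kif23 at 3, in Kif20b at 8 and 14 and in Kif4 at 20, whereas in Kif2c (-103) and Kif14 (-228) it lay farther upstream. The windows of Kif18a and Kif2b held none, which says only that these letters were not in those 300 bases. The transport kinesin with a match was Kif1a, which has windows at different starts. The core was at -44 in 1 of them and absent from the other. Those of the other kinesins were Kif27 and Kif26b, the latter with the core at -9 and a CCAAT box at -73. CCAAT boxes were less selective, present in 7 of the 11 mitotic (63.6%), 5 of the 14 transport (35.7%) and 4 of the 9 other kinesins (44.4%) and in 41.1% of all genes. These matches describe sequence. Binding at them was not measured here.

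**Figure D4:**
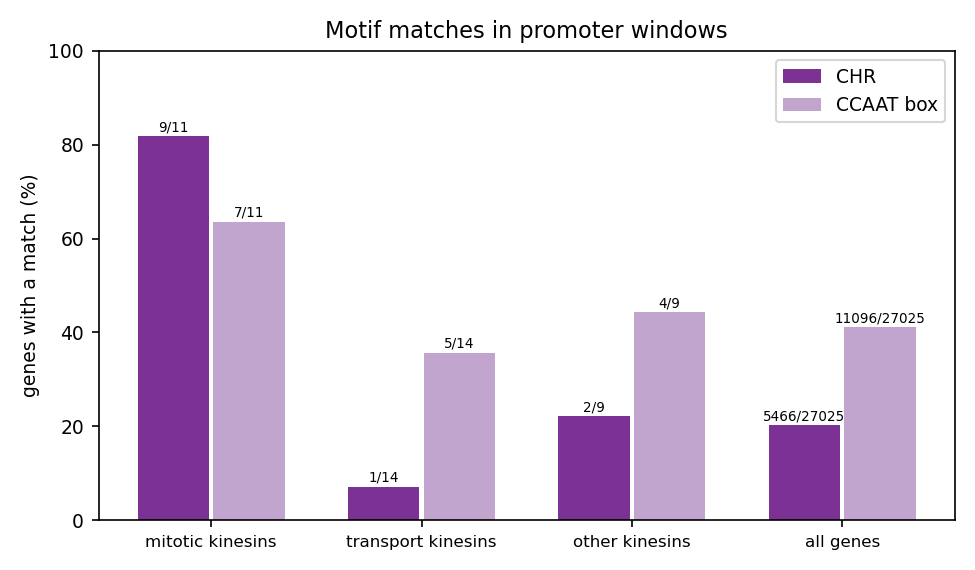
Percent of genes with the CHR core or with CCAAT in the promoter window, for the mitotic, transport and other kinesins and for all genes. The CHR core was found in 9 of 11 mitotic, 1 of 14 transport and 2 of 9 other kinesins and in 20.2% of all genes with a window.

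The transport kinesins showed no common direction. Of 20 genes, 9 were lower and 11 higher in knockdown, with differences from -0.56 to 0.33 and a median of 0.015. With the array medians set equal, which shifted the median difference of all genes to -0.107 and left 71% of them lower, 15 of the 20 were lower with a class median of -0.091, close to that shift. Averaged over the class, controls lay between -0.033 and 0.022, and knockdown 1, 2 and 3 at -0.08, -0.14 and 0.15. The knockdown arrays thus lay outside the narrow range of the controls, on both sides of it. Knockdown 3 was above all controls for 9 of the 20 genes, knockdown 2 below all controls for 7 and knockdown 1 for 6. Controls 2 and 3 both exceeded controls 1 and 4 for 2 of the 20, and knockdown 2 was above the control mean for 4, so the order of arrays seen in the mitotic kinesins did not recur. Subtracting the transport mean from the mitotic mean in each array gave -0.49, 0.38, 0.47 and -0.36 in controls and -1.06, 0.40 and -0.72 in knockdown, and the groups overlapped. The class medians were -0.55 apart, and -0.17 and -1.14 apart without knockdown 1 and 2. Without knockdown 2 the transport median was 0.15, and without knockdown 3 it was -0.11 with 15 of 20 lower.

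Kif21b (Entrez 16565), a neuronal motor that also limits microtubule growth in axons and dendrites, had the smallest p of all 43 kinesins. It was at 10.39, 9.72, 9.92 and 10.09 in controls and 9.68, 9.25 and 9.48 in knockdown, so that every knockdown array was below every control, although knockdown 1 and control 2 were separated by only a few hundredths. The difference was -0.56 (SE 0.19, 95% interval -0.99 to -0.12; unadjusted p = 0.0185; limma adjusted p = 0.825), a knockdown mean at 67.9% of the control level on the linear scale. It kept its sign in each alternative, ranging from -0.67 to -0.43. The 10 cortical neuron markers were divided, 5 lower and 5 higher in knockdown with a median of 0.02. Among them Neurod6 and Dcx also lay wholly below the controls in all 3 knockdown arrays, as 3.07% of all genes did. Neurod6 and Dcx differed by -0.71 (SE 0.13) and -0.52 (SE 0.19), and neither passed (limma, adjusted p = 0.825 for both). Their part in the value of Kif21b was not tested. Its close relative Kif21a was at 8.77, 8.999, 8.37 and 8.19 in controls and 8.79, 8.36 and 8.72 in knockdown, a difference of 0.04 (SE 0.22).

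Among the subunits of conventional kinesin, Kif5b (Entrez 16573), the heavy chain found in most cell types, was at 8.20, 8.36, 8.27 and 8.39 in controls and 7.77, 8.30 and 7.79 in knockdown. Replicates 1 and 3 were below all controls and replicate 2 within them, as for Kif22 and Kif20a, and the difference was -0.36 (SE 0.16, 95% interval -0.72 to 0.01; limma adjusted p = 0.825). The neuronal heavy chains differed less. Kif5c was at 8.30, 8.19, 8.14 and 7.97 in controls and 8.18, 7.88 and 8.42 in knockdown, and Kif5a at 6.36, 6.01, 5.74 and 6.09 against 5.57, 5.69 and 6.95, differences of 0.01 (SE 0.15) and 0.02 (SE 0.34). For Kif5a the small mean difference covers a knockdown 3 above and knockdown 1 and 2 below every control. The light chain Klc1 was at 8.31, 8.67, 8.40 and 8.47 in controls and 8.43, 8.44 and 8.96 in knockdown (0.15, SE 0.17), and Klc4 at 6.17, 5.69, 5.74 and 5.81 against 5.75, 5.74 and 5.04 (-0.34, SE 0.21). Knockdown 3 was thus the highest array for Klc1 and the lowest for Klc4, while Klc3, dim in every array, differed by -0.04 (SE 0.12).

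The carriers of synaptic vesicle precursors were highest in knockdown 3. Kif1a, the axonal motor for these vesicles, was at 8.57, 8.34, 8.28 and 8.28 in controls and 8.69, 8.23 and 9.10 in knockdown (0.31, SE 0.21, 95% interval -0.17 to 0.79), and Kif1b, which also carries mitochondria, at 8.86, 8.64, 8.60 and 8.58 against 8.67, 8.45 and 9.27 (0.13, SE 0.20). Neither difference passed, and knockdown 2 was below every control for both. The related Kif1c had the highest difference of the class, 0.33, with an SE of 0.38, because control 1 (5.62) was far below the other controls (6.66 to 7.44). Without control 1 it differed by -0.01. The mean of 10 cortical neuron markers was also highest in knockdown 3, at 9.32, with 8.34 to 8.95 in the other arrays. The markers were divided: 6 of the 10 were highest in knockdown 3, whereas Neurod6 was lowest there, at 10.36.

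The subunits of heterotrimeric kinesin, which works in cilia and in dendrites, differed from each other. Kif3b (Entrez 16569) was at 6.62, 6.25, 6.12 and 6.38 in controls and 5.69, 6.22 and 6.12 in knockdown, a difference of -0.33 (SE 0.18; limma adjusted p = 0.825) to which knockdown 1 contributed most. Kif3a and Kif3c, its partners, differed by -0.03 (SE 0.20) and -0.05 (SE 0.16). Kifc3, a motor that walks toward the minus end, was at 4.51, 4.52, 4.61 and 4.54 in controls and 4.96, 4.61 and 4.71 in knockdown, where replicate 2 lay at the highest control, a difference of 0.21 (SE 0.12; limma adjusted p = 0.825). Kifc2 differed by -0.01 (SE 0.30), with knockdown 3 (5.65) above and the other knockdown arrays (4.44 and 4.53) below all controls. The endosome motors Kif13a, Kif13b and Kif16b and the dendritic Kif17 differed by 0.07, 0.05, -0.15 and 0.10, each within its standard error.

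The adaptors and the opposite motor gave no common direction either. Of 19 listed cargo adaptors 17 were measured, 9 lower and 8 higher with a median of -0.017, and 1 was lower at an unadjusted p under 0.05, beside 3.61% of all genes. That gene was Trak2, which links kinesin to mitochondria, at -0.40 (SE 0.16) and without overlap between the groups, again the only adaptor, beside 3.07% of all genes. The scaffolds Mapk8ip3 and Mapk8ip2 differed by 0.41 and 0.31 and the adaptor Fez1 by -0.29. Of 20 subunits of dynein, dynactin and their regulators 19 were measured, 12 lower and 7 higher with a median of -0.087. Averaged over these 19, the arrays stood at -0.05, 0.02, 0.05 and -0.02 in controls and -0.22, 0.11 and -0.18 in knockdown. Controls 2 and 3 exceeded controls 1 and 4 and knockdown 1 was lowest, as for the mitotic kinesins but over a narrower range. Unlike there, knockdown 2 was the highest array. Dctn5, a dynactin subunit, was the only 1 of the 19 lower at an unadjusted p under 0.05 (-0.48, SE 0.18), and Dynll1, a dynein light chain, differed by -0.42. These counts are near the shares over all genes, and none of these genes passed limma's test over all genes.

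**Figure D5:**
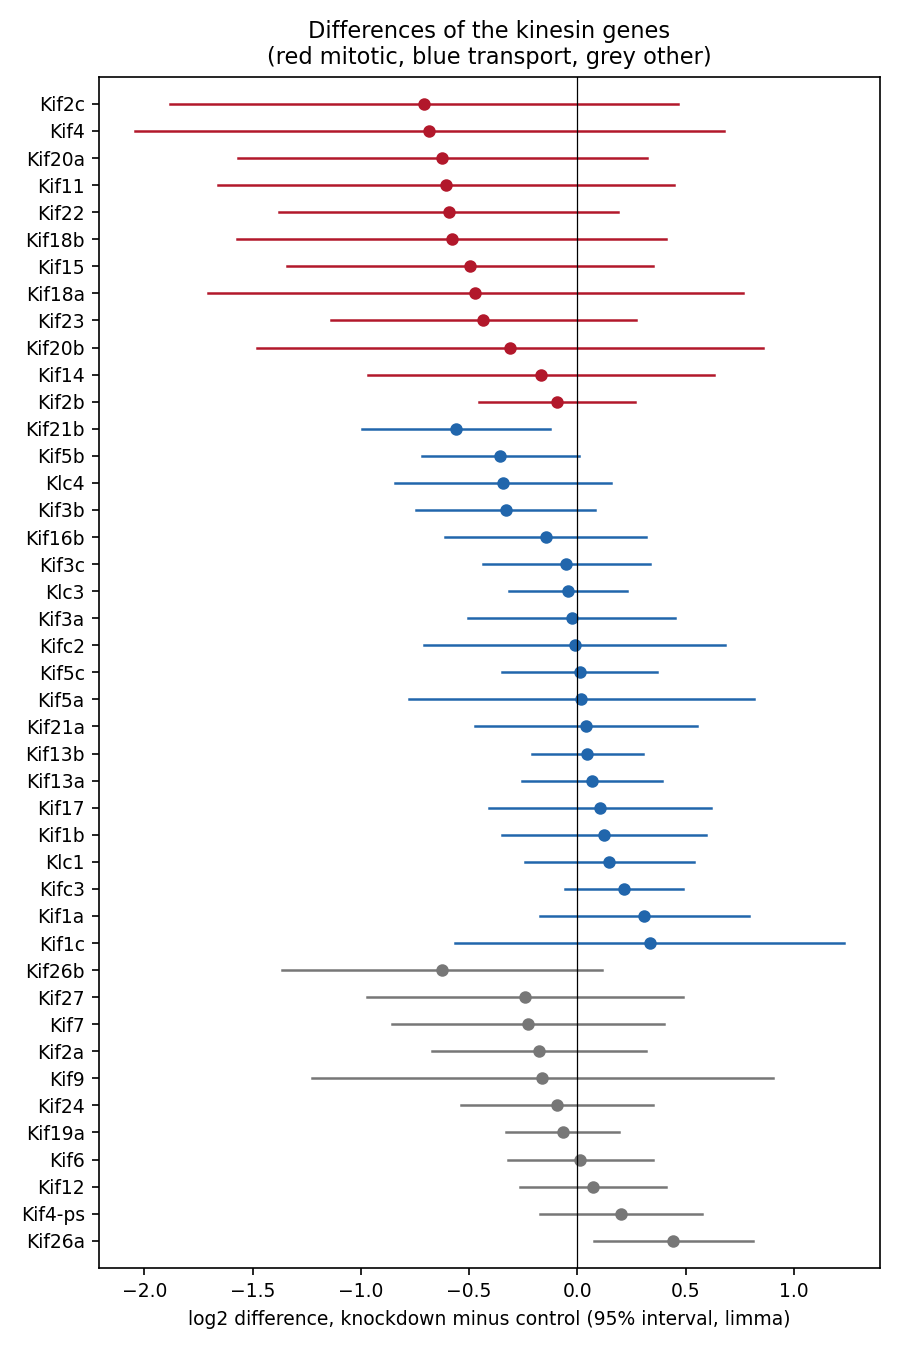
Log2 difference (knockdown minus control) of each of the 43 kinesin genes with its 95% interval from limma, 4 control and 3 knockdown arrays. All 12 mitotic kinesins lie below 0 with intervals that include it, and the intervals of Kif21b and Kif26a do not include 0 before adjustment.

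The other kinesins include depolymerases of interphase and neurons, cilium motors and atypical members. Of 11 genes, 7 were lower and 4 higher, with a median of -0.094. Kif26a (Entrez 668303), an atypical kinesin that acts in signalling rather than in transport, was at 5.87, 5.75, 5.95 and 5.53 in controls and 6.39, 5.95 and 6.33 in knockdown, with replicates 1 and 3 above all controls and replicate 2 level with the highest. Its difference was 0.44 (SE 0.16, 95% interval 0.08 to 0.81; unadjusted p = 0.0241; limma adjusted p = 0.825). Kif26b, its relative, was at 7.88, 6.95, 6.47 and 6.93 in controls and 6.66, 6.46 and 6.17 in knockdown (-0.63, SE 0.32), but a second probe set of Kif26b gave 0.18 (SE 0.40), so the probe sets disagreed in sign.

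Kif2a, a depolymerase that trims axon branches and also acts at spindle poles, was at 8.46, 8.87, 8.88 and 8.62 in controls and 8.07, 8.63 and 8.88 in knockdown (-0.18, SE 0.21), with knockdown 1 the lowest array and knockdown 3 level with the highest control. Kif7, which acts in Hedgehog signalling at the primary cilium, was at 5.59, 5.90, 6.39 and 6.22 in controls and 6.32, 5.39 and 5.69 in knockdown (-0.23, SE 0.27), and its second probe set gave 0.26. The pseudogene Kif4-ps differed by 0.20 (SE 0.16) and by -0.22 on its second probe set, and as a near copy of Kif4 its signal cannot be assigned with certainty.

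Kif9 and Kif27, motors of motile cilia, were dim in 6 arrays and higher in control 4. Kif9 was at 3.39, 3.60, 3.24 and 5.19 in controls and 3.60, 3.88 and 3.60 in knockdown, and Kif27 at 3.25, 3.28, 3.04 and 4.38 against 3.16, 3.38 and 3.19. A list of 10 choroid plexus and motile cilium genes, added after these values were seen, had mean levels of 4.02, 4.03, 4.55 and 6.60 in controls and 4.03, 5.38 and 4.23 in knockdown, highest in control 4 as well. The list was divided: 7 of the 10 were highest in control 4, whereas Ccdc153, Tmem212 and Dnah12 were highest in other arrays. Ccdc153 was lower in control 4 than in any other control. The choroid plexus gene Ttr was at 4.05, 4.00, 9.86 and 12.6 in controls and 4.34, 12.0 and 4.20 in knockdown, thus high in control 3 and knockdown 2 too. Outside control 4, knockdown 2 was also the highest array for Kif9 and Kif27, by a small margin. Control 3, however, was the lowest of the 7 arrays for both. The part of choroid plexus or ciliated cells in these values was not tested. Without control 4 the differences of Kif9 and Kif27 were 0.28 and 0.05, in place of -0.16 and -0.24. Kif6, Kif12, Kif19a and Kif24 differed by 0.01, 0.07, -0.07 and -0.09, each within its standard error.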

How the data were processed

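The deposited table holds log2 values, and per the submitters' processing notes the authors used Affymetrix Expression Console 1.2 and RMA. The latter corrects background, normalizes probe quantiles across arrays and summarises each probe set, which compresses differences of dim genes. RNA was amplified before labelling, per the labels' protocols. Of 35556 probe sets, 21789 carried 1 gene symbol, 1621 several and 12146 none, and 21698 of the first matched RefSeq (GRCm38.p6) by gene identifier. Each gene took its probe set with the highest mean over 7 arrays. Levels of different probe sets were compared only to choose probe sets and named genes and to rate genes by brightness.

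Knockdown and control were compared with lmFit and eBayes in limma 3.58.1 (R 4.3.3), two-sided, without covariates, with 5 residual and 2.36 prior degrees of freedom, at an adjusted threshold of 0.05. The code was tested on simulated data. The kinesins, their classes, the partner lists and the markers were chosen with earlier results of these data known, so list counts and medians are descriptions without a test. Named with full values were the 4 genes of each class with the smallest p and the 4 with the highest level, from pathway lists up to 4 genes by p, and from marker lists up to 3 by level. Kif1a, Kif1c, Kif4, Kif5a, Kif5c, Kif9, Kif27, Klc4, Cenpe, Racgap1, Numa1, Pax6, Dcx and Ttr were given values outside that rule, after they were seen. Kif4-ps, on no class list, was counted with the other kinesins.

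The alternatives were array weights, an intensity trend, cyclic loess or renewed quantile normalization, array medians set equal, omission of the dimmest 25% or 50% of genes, probe set means, the replicate number as a block, and each array left out in turn. Replicate numbers were not taken as pairs. No count depth applies to arrays, and their number limits the precision.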

Additional observations from a re-analysis of the deposited data

Results flagged for a closer look

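In 3 of 46 sets of 4 control values, 1 array stood apart from the other 3 by more than Dixon's limit, which chance passes in about 1 group in 20. All 3 cases were control replicate 4 and a gene below the median level of all genes. Kif4-ps was at 3.124 in that array and at 3.557 to 3.581 in the others. Kif13b was at 4.397, with the others at 4.648 to 4.662, and Kif19a was at 4.403, with the others at 4.195 to 4.21. Control 4 was low for Kif4-ps and Kif13b and high for Kif19a, and the gaps made up 0.9475, 0.9472 and 0.9279 of the range over the 4 arrays.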

How the results depend on the processing

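No gene passed an adjusted p of 0.05 in limma under any of the 16 alternatives. At an unadjusted p under 0.05 there were 1522 lower and 882 higher genes without knockdown 2 and 1507 and 183 with equal array medians, against 719 and 439. The mitotic median lay between -0.99 (without knockdown 2) and -0.14 (without knockdown 1), and all measured members were lower except without control 3 or knockdown 1 (10 of 12). The replicate block gave a mitotic median of -0.62, 842 lower and 644 higher genes at an unadjusted p under 0.05, and changed no call. No knockdown array has the number of control 4, so the block gave the same differences as leaving control 4 out. Deviations of same-numbered arrays correlated at 0.0278, -0.0507 and 0.0716, and no knockdown array correlated best with the control of its own number. The transport median, 0.015, was -0.0164 with array weights, -0.091 with equal medians and -0.0077 with the replicate block, and ran from -0.11 to 0.15 when single arrays were left out. Over single genes, 601 of 673 differences kept their sign and 72 turned, in 3 mitotic, 14 transport and 8 other kinesins. Some of the 601 could not turn. The intensity trend and the omission of dim genes do not alter a gene's difference. Probe set means alter only the 6 kinesins with 2 probe sets. The cause of the turned signs was not tested.

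Turned values were, with array weights, 0.0211 for Kif9, -0.0018 for Kif21a, -0.0112 for Kif5c and -0.0217 for Kif5a. With equal medians they were -0.0334 for Kif12, -0.0926 for Kif6, -0.038 for Kif13a, -0.0022 for Kif17, -0.0599 for Kif13b, -0.0657 for Kif21a, -0.0942 for Kif5c and -0.0877 for Kif5a. With quantile normalization they were -0.0259 for Kif12, -0.062 for Kif6, -0.028 for Kif13a, -0.0694 for Kif13b and 0.0301 for Kif3a, and with cyclic loess -0.038 for Kif6, -0.0071 for Kif13b, 0.0174 for Kif3c and 0.0538 for Kif3a. The mean over probe sets gave -0.0094 for Kif4-ps, 0.0179 for Kif7 and -0.0499 for Kif6. The replicate block, with the same differences as leaving control 4 out, gave 0.0543 for Kif27, 0.2847 for Kif9, -0.0183 for Kif6 and for Kif13b, 0.0253 for Kif16b, -0.0917 for Kif21a, 0.0887 for Kif3a and -0.0463 for Kif5c.

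When single arrays were left out, the differences with a turned sign ran from -0.70 to 0.0255 for Kif20b, -0.2048 to 0.0007 for Kif2b, -0.4583 to 0.0632 for Kif14, -0.3532 to 0.0512 for Kif2a, -0.3923 to 0.0543 for Kif27, -0.0478 to 0.1452 for Kif12, -0.2225 to 0.07 for Kif24, -0.3667 to 0.2847 for Kif9 and -0.1253 to 0.1228 for Kif6. Among transport kinesins they ran from -0.0268 to 0.2378 for Klc1, -0.011 to 0.597 for Kif1c, -0.2343 to 0.0253 for Kif16b, -0.1128 to 0.2988 for Kif1b, -0.0545 to 0.154 for Kif13a, -0.1375 to 0.2805 for Kif17, -0.0183 to 0.0707 for Kif13b, -0.1215 to 0.026 for Klc3, -0.204 to 0.059 for Kif3c, -0.0917 to 0.1797 for Kif21a, -0.1823 to 0.0887 for Kif3a, -0.1185 to 0.1495 for Kif5c, -0.4218 to 0.2662 for Kif5a and -0.4012 to 0.2027 for Kifc2. Dim probe sets limit precision: 31 of the 43 kinesins lay above the median level of all genes.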
